A study of Mus musculus with 10 samples.

Results

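The *Cyp4* genes encode cytochrome P450 enzymes that place a hydroxyl group at or next to the methyl end of fatty acids and of eicosanoids. Of the 24052 gene symbols listed for each liver, 22 belong to the *Cyp4* family by name (*Cyp4* followed by a letter), and the 10 described here were chosen by symbol: *Cyp4a10*, *Cyp4a12a*, *Cyp4a12b*, *Cyp4a14*, *Cyp4a31*, *Cyp4a32*, *Cyp4f13*, *Cyp4f14*, *Cyp4f15* and *Cyp4v3*. All 10 were listed in all 10 livers and passed the filter on low counts. RNA was sequenced from whole livers of 5 wild-type and 5 Ndrg3 LKO mice, with 1 library per liver, and the comparison asks how transcript levels differ when *Ndrg3*, N-myc downstream-regulated gene 3, is deleted in the liver.

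The labels give the strain of both groups as C57BL/6, the methods say that founders of the conditional line were crossed to C57BL/6N for several generations, and both groups were fed ad libitum. The Ndrg3 LKO mice carry an *Ndrg3* allele without its exon 4, which was flanked by loxP sites and removed by Cre under the albumin promoter, so that the deletion is driven where albumin is expressed, chiefly in hepatocytes. The controls were wild-type littermates, and whether they carried the floxed allele or Cre is not given in the sources used here. The labels give no age or sex. According to the methods, males were used unless otherwise mentioned, and all 10 libraries held between 991 and 4111 counts of the Y-linked *Ddx3y* and between 0 and 2 of *Xist*. The labels do not say how the livers of a group relate to each other, so p-values measure the spread between these livers.

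Gene counts summed to 20872262 to 24747870 per wild-type library and to 23474693 to 30450057 per Ndrg3 LKO library. Levels are given as TMM-normalized CPM, read counts divided by the size of the library after edgeR's trimmed-mean scaling, and a change is called at an adjusted p below 0.05 in edgeR's quasi-likelihood test over the 11208 genes tested. *Ndrg3* was at 17.8, 17.8, 16.0, 19.1 and 21.9 in wild-type livers 1 to 5 and at 7.08, 8.06, 9.18, 7.79 and 8.26 in Ndrg3 LKO livers 1 to 5, a log2 fold change of -1.20 ± 0.13 (SE, edgeR adjusted p = 3.87e-05). The paper's figure of these RNA data gives 5 wild-type and 4 Ndrg3 LKO livers, and the sources used here do not say which liver was left out. In the deposited data Ndrg3 LKO liver 5 stood apart. On the first principal component of the 11208 genes tested it lay at 14.1. There Ndrg3 LKO livers 1 to 4 lay between 51.1 and 56.6 and the wild-type livers between -49.9 and -43.1. The fold changes of the 10 genes and the counts of the gene lists are therefore also given without Ndrg3 LKO liver 5.

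In rodent liver the *Cyp4a* genes are the classical induced targets of PPARalpha, the nuclear receptor that senses fatty acids. Their products carry out omega-hydroxylation, the first step of a side route by which fatty acids become dicarboxylic acids and are shortened in peroxisomes, and they also form 20-HETE, a vasoactive product of arachidonic acid. The *Cyp4f* enzymes are best known for inactivating leukotriene B4 and for oxidizing very long-chain fatty acids and vitamin E side chains. *Cyp4a12a* differs from its neighbours in being expressed in males under the control of androgen and of the pulses of growth hormone.

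Of the 10 genes, 1 rose in Ndrg3 LKO livers (*Cyp4a14*), 6 fell (*Cyp4a10*, *Cyp4a12a*, *Cyp4a12b*, *Cyp4f13*, *Cyp4f14* and *Cyp4f15*) and 3 did not pass the test (*Cyp4a31*, *Cyp4a32* and *Cyp4v3*). The change was widespread in this comparison: 48.6% of all genes tested were called, 25.6% as higher and 23.0% as lower, the background against which 7 calls among 10 genes are to be read. In whole livers, fewer hepatocytes and less RNA of a *Cyp4* gene per hepatocyte cannot be told apart. The groups did not overlap for 6 of the 10 genes, 1 higher and 5 lower, where 31.5% of all genes tested did not overlap in either direction and 15.9% lay lower. Without Ndrg3 LKO liver 5 the same test again called 7 of the 10, 1 as higher and 6 as lower, beside 55.6% of all genes. The median log2 fold change of the 10 was -0.90, against 0.031 for all genes tested. Scaling by library size alone in place of TMM moved these medians to -0.43 and 0.56, and called 3 of the 10 as higher and 4 as lower, with 5834 genes higher and 1005 lower in place of 2865 and 2578.

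**Figure D1:**
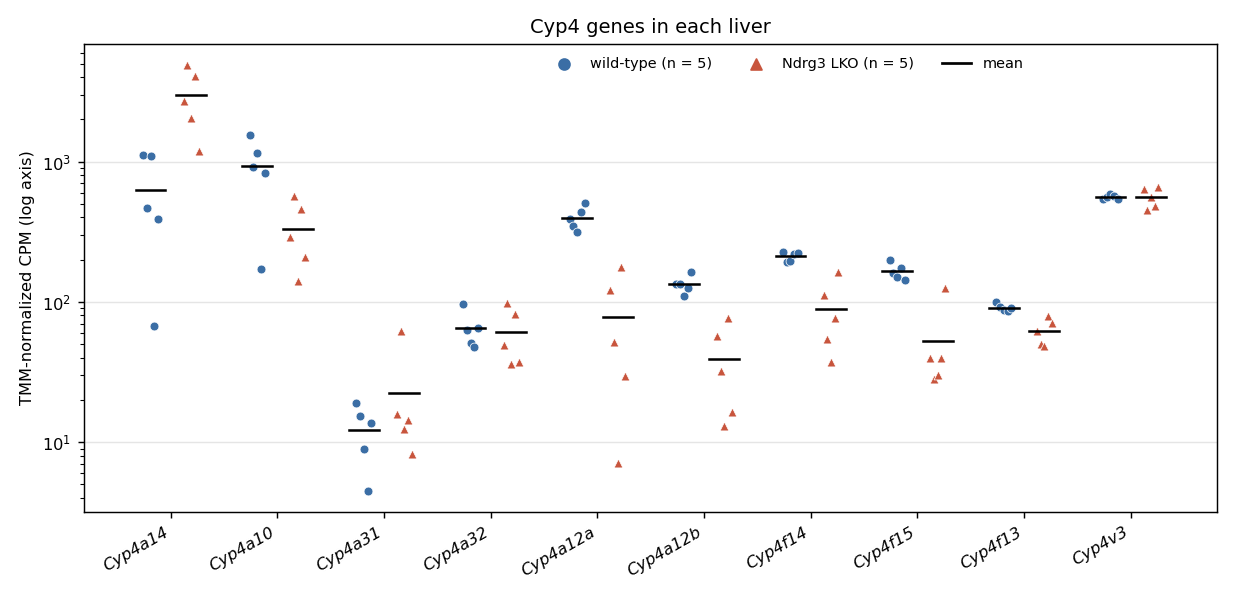
TMM-normalized CPM of the 10 Cyp4 genes in each liver on a log axis, with circles for wild-type and triangles for Ndrg3 LKO livers (n = 5 each) and a bar for each mean. The triangles of Cyp4a14 lie above all its circles, those of Cyp4a12a, Cyp4a12b and the Cyp4f genes lie below theirs, and Cyp4v3 stays near the same level, with means of 558 and 559.

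**Figure D2:**
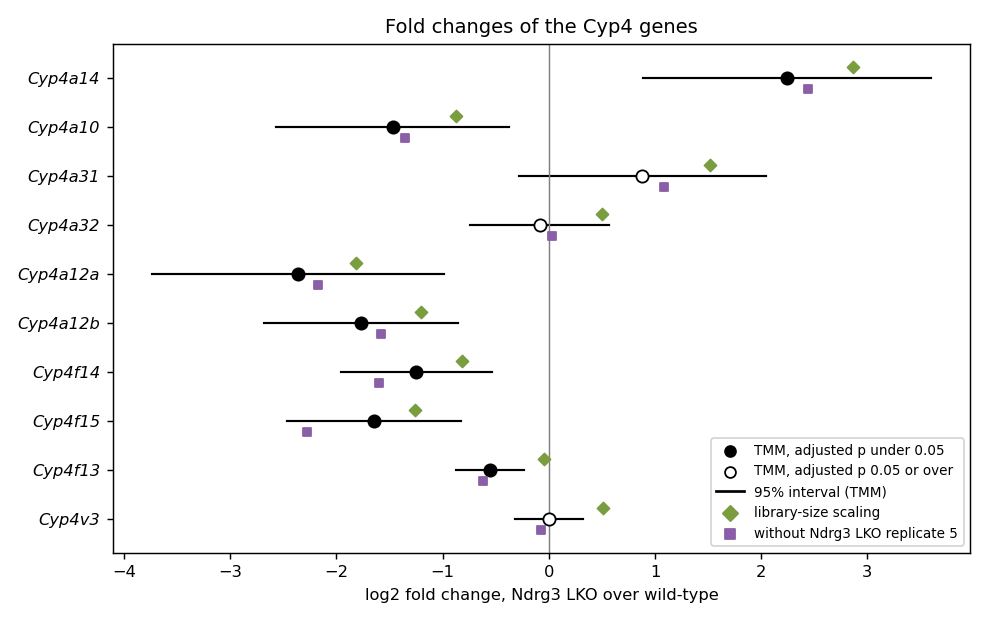
log2 fold change of each Cyp4 gene, Ndrg3 LKO over wild-type (edgeR), with 95% intervals, filled where the adjusted p is under 0.05. Diamonds give the value under library-size scaling and squares the value without Ndrg3 LKO replicate 5; only Cyp4a32 and Cyp4v3 have values on both sides of 0.

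The 6 *Cyp4a* genes lie in 1 cluster of 323 kb on chromosome 4 of mm9, from 114971651 to 115294207. *Cyp4a14*, a lauric acid omega-hydroxylase that is sharply induced by PPARalpha ligands, runs on the minus strand from 115158805 to 115168747. Its neighbour *Cyp4a10*, the other main PPARalpha-inducible lauric acid hydroxylase, runs on the plus strand from 115190869 to 115206254, so that the annotated starts of this divergent pair lie 22.1 kb apart. These neighbours moved in opposite directions.

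*Cyp4a14* was at 1109, 470.1, 1102, 67.6 and 391 CPM in wild-type livers 1 to 5. It was at 2702, 4867, 2038, 4097 and 1191 CPM in Ndrg3 LKO livers 1 to 5. Every Ndrg3 LKO liver lay above every wild-type liver, although the lowest of them, liver 5, passed wild-type livers 1 and 3 by little, and wild-type liver 4 lay far below the rest of its group. The means were 628 ± 461 and 2979 ± 1498 CPM (SD, n = 5 each), a 4.74-fold rise. Its log2 fold change came to 2.25 ± 0.62 (SE, 95% interval 0.89 to 3.60, edgeR adjusted p = 0.0110), and the exact permutation test on log2 CPM gave p = 0.00794 (2-sided), the smallest p that 5 livers against 5 can give. Without Ndrg3 LKO liver 5 it came to 2.44 (edgeR adjusted p = 0.00485). No 100-base stretch of its transcripts is shared with another gene in the annotation.

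*Cyp4a10* was at 1548, 912, 1150.1, 172 and 835 CPM in wild-type livers 1 to 5, against 290.45, 564, 140.4, 462 and 208 CPM in Ndrg3 LKO livers 1 to 5. The groups overlapped through wild-type liver 4 alone, which lay below all but Ndrg3 LKO liver 3; the other 4 wild-type livers lay above every Ndrg3 LKO liver. The fall of *Cyp4a10* was the least secure of the 7 calls, with a log2 fold change of -1.47 ± 0.51 (SE, 95% interval -2.57 to -0.37, edgeR adjusted p = 0.0300) and an exact permutation p of 0.0794. It was lost in 10 of 19 alternative settings, among them library-size scaling (-0.87, edgeR adjusted p = 0.144), and kept without Ndrg3 LKO liver 5 (-1.35, edgeR adjusted p = 0.0457). Of the 100-base stretches of its transcripts, 11.6% occur in another gene, most of them in *Cyp4a32*.

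The opposite movement of this pair was largest as a ratio within each liver, which does not depend on how libraries are scaled. Per kilobase of exon, the counts of *Cyp4a14* were 0.581, 0.418, 0.777, 0.319 and 0.3796 times those of *Cyp4a10* in wild-type livers 1 to 5. In Ndrg3 LKO livers 1 to 5 they were 7.54, 6.99, 11.8, 7.19 and 4.65 times those of *Cyp4a10*. The ratio was below 1 in each wild-type liver and above 4 in each Ndrg3 LKO liver, and it varied less within a group than either gene did: in wild-type liver 4, the lowest for both, it was close to that of liver 5. The medians were 0.418 and 7.19. This ratio was chosen after the values of both genes had been seen and is given as a description, with no test. In both groups the livers ranked alike for the pair, with wild-type livers 1 and 3 highest and 4 lowest, and with Ndrg3 LKO livers 2, 4 and 1 above livers 3 and 5.

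**Figure D3:**
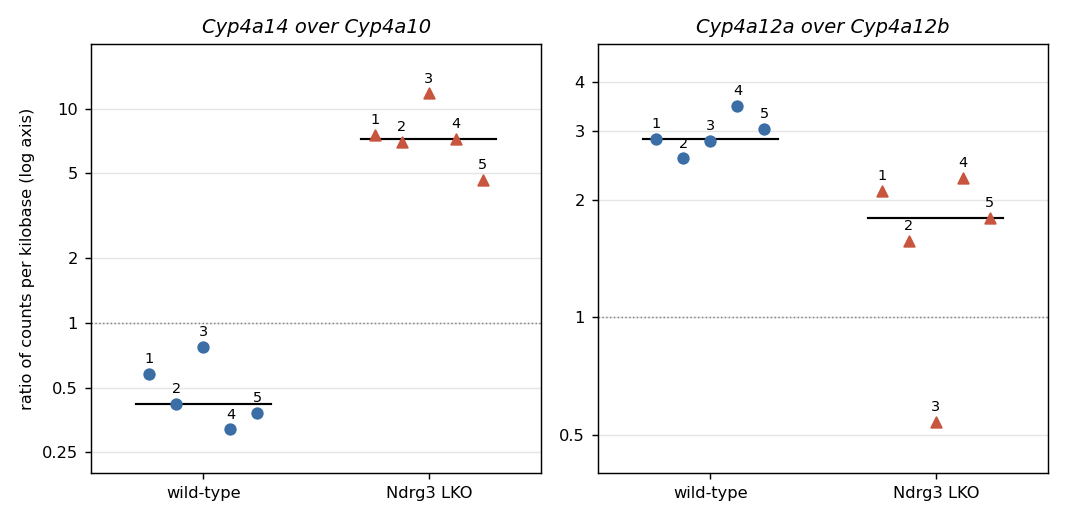
Ratio of counts per kilobase of exon in each liver (log axis, numbered by replicate, bar at the median) for Cyp4a14 over Cyp4a10 and for Cyp4a12a over Cyp4a12b. The first ratio is 0.319 to 0.777 in wild-type and 4.65 to 11.8 in Ndrg3 LKO livers, and the second is 2.55 to 3.48 and 0.539 to 2.27.

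*Cyp4a31* and *Cyp4a32* are close relatives of *Cyp4a10* at the distal end of the cluster. *Cyp4a31*, the lowest of the 10 genes, was at 19.1, 15.3, 8.87, 4.51 and 13.6 CPM in wild-type livers 1 to 5, against 15.9, 61.7, 12.4, 14.4 and 8.26 CPM in Ndrg3 LKO livers 1 to 5. Only Ndrg3 LKO liver 2 lay above the highest wild-type liver, and the log2 fold change of 0.88 ± 0.53 (SE, 95% interval -0.28 to 2.04) did not pass the test (edgeR adjusted p = 0.187, and 1.08 without Ndrg3 LKO liver 5, edgeR adjusted p = 0.0865). Without Ndrg3 LKO liver 2 it came to 0.057 (edgeR adjusted p = 0.902), so the value rests on that liver. Under library-size scaling *Cyp4a31* was called, at 1.52 (edgeR adjusted p = 0.0326).

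*Cyp4a32* was at 97.3, 62.6, 50.75, 47.6 and 64.9 CPM in wild-type livers 1 to 5, against 49.6, 98.9, 36.2, 82.2 and 37.2 CPM in Ndrg3 LKO livers 1 to 5. The ranges lay over each other, with a log2 fold change of -0.087 ± 0.30 (SE, 95% interval -0.74 to 0.56, edgeR adjusted p = 0.827), which was 0.50 under library-size scaling and 0.034 without Ndrg3 LKO liver 5. This interval, under TMM, admits neither a doubling nor a rise like that of *Cyp4a14*. Among Ndrg3 LKO livers, liver 2 was the highest for *Cyp4a14*, *Cyp4a10*, *Cyp4a31* and *Cyp4a32* alike, and wild-type liver 4 was the lowest of its group for all 4. Since *Cyp4a32* shares 20.1% and *Cyp4a31* 7.34% of their 100-base stretches with other genes, the counts of *Cyp4a10*, *Cyp4a31* and *Cyp4a32* were also added. The sum followed its largest part, *Cyp4a10*, at -1.26 ± 0.48 (SE, edgeR adjusted p = 0.0442), and lost its call without Ndrg3 LKO liver 5 (-1.14, edgeR adjusted p = 0.0666) and under library-size scaling (-0.66, edgeR adjusted p = 0.239).

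*Cyp4a12a*, the 20-HETE-forming hydroxylase of male mice, lies first in the cluster on the plus strand, from 114971651 to 115005420. It was at 392, 345, 314, 440.3 and 504 CPM in wild-type livers 1 to 5, against 121, 51.4, 7.09, 178 and 29.7 CPM in Ndrg3 LKO livers 1 to 5. The groups did not overlap, and the Ndrg3 LKO livers were far more scattered, with the highest 25.0 times the lowest, against 1.61 times in wild-type livers. The means were 399 ± 75.6 and 77.5 ± 70.5 CPM (SD, n = 5 each), 5.15-fold lower in Ndrg3 LKO livers. The log2 fold change of -2.36 ± 0.63 (SE, 95% interval -3.74 to -0.99, edgeR adjusted p = 0.00899) was the largest fall of the 10 genes, with an exact permutation p of 0.00794, and was -2.17 without Ndrg3 LKO liver 5 (edgeR adjusted p = 0.0120).

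*Cyp4a12b*, a near copy of *Cyp4a12a* whose start lies 113 kb further along, was at 135, 133, 109, 125 and 164 CPM in wild-type livers 1 to 5, against 56.9, 32.4, 13.0, 77.2 and 16.3 CPM in Ndrg3 LKO livers 1 to 5. The groups did not overlap, and the Ndrg3 LKO livers ranked in the same order as for *Cyp4a12a*: livers 4, 1, 2, 5 and 3 from high to low. Its log2 fold change came to -1.77 ± 0.42 (SE, 95% interval -2.68 to -0.85, edgeR adjusted p = 0.00488, exact permutation p = 0.00794, and -1.58 without Ndrg3 LKO liver 5). These copies share 35.8% of the 100-base stretches of *Cyp4a12a*, and *Gm12837* overlaps *Cyp4a12b* on the opposite strand, so how the counting divided the reads is uncertain. Added together, their counts fell by 2.19 on the log2 scale (SE 0.54, edgeR adjusted p = 0.00603, and -1.999 without Ndrg3 LKO liver 5).

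Within the pair, *Cyp4a12a* held 2.86, 2.55, 2.83, 3.48 and 3.03 times the counts per kilobase of *Cyp4a12b* in wild-type livers 1 to 5, and 2.11, 1.57, 0.539, 2.27 and 1.798 times in Ndrg3 LKO livers 1 to 5. Liver 3, with 275 counts of *Cyp4a12a* and 503 of *Cyp4a12b*, was the only one in which *Cyp4a12b* was the higher. Against the other 4 *Cyp4a* genes together, *Cyp4a12a* and *Cyp4a12b* were lower in each Ndrg3 LKO liver than in any wild-type liver. Of those 4 genes *Cyp4a14* was by far the highest in Ndrg3 LKO livers, so this ratio also holds the rise of *Cyp4a14*. The log2 ratio of summed counts per kilobase was -1.43 ± 1.34 in wild-type and -5.17 ± 1.17 in Ndrg3 LKO livers (SD, n = 5 each), a difference of -3.74 (2-sided exact permutation p = 0.00794, and -3.80 without Ndrg3 LKO liver 5).

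The *Cyp4f* genes described here lie on chromosome 17 within 262 kb, from 32822572 to 33084347 in mm9, and all 3 fell. *Cyp4f14*, a leukotriene B4 and vitamin E omega-hydroxylase, and *Cyp4f13* stand side by side on the minus strand with starts 30.3 kb apart, while *Cyp4f15*, which also acts on leukotriene B4, lies apart from them on the plus strand. RefSeq gives promoter sequence on GRCm38.p6 for 5 of the 10 genes: these 3, *Cyp4a32* and *Cyp4v3*. The 250 bases before the start are printed for the 3 *Cyp4f* genes because they moved together, with capitals marking the longest words that all 3 windows hold, of 7 bases each. The words were found after the sequences had been read. *Cyp4f14* has 4 listed starts, of which the most upstream was used. The windows are chr17:32917357-32917606 (minus strand) for *Cyp4f14*, chr17:32685409-32685658 (plus strand) for *Cyp4f15* and chr17:32947362-32947611 (minus strand) for *Cyp4f13*.
Cyp4f14: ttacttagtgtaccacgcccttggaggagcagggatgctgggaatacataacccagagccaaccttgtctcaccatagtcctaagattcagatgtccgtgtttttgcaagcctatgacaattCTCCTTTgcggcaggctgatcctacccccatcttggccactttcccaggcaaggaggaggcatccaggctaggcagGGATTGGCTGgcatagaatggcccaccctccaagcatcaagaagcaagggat
Cyp4f15: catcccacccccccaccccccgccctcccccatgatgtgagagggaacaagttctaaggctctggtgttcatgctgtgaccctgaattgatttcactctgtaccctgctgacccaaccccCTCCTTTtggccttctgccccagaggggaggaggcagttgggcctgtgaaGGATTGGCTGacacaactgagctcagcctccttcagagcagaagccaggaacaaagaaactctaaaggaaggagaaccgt
Cyp4f13: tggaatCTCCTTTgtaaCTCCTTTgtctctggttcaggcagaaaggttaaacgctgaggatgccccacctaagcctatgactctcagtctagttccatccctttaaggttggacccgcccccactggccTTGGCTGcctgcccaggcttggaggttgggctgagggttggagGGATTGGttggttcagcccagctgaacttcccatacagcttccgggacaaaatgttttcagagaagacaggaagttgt

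The first shared word, GGATTGG, occurs on either strand in 4.17% of the 32851 windows of this length in the table. The second, TTGGCTG, occurs in 7.48% of them, and the third, CTCCTTT, in 7.15%. GGATTGG holds the reverse complement of the CCAAT box and began 52 bases before the start in *Cyp4f14*, 80 in *Cyp4f15* and 78 in *Cyp4f13*. In *Cyp4f14* and *Cyp4f15* it runs on into TTGGCTG, whereas in *Cyp4f13* that word lies 121 bases before the start. Other motifs were searched on both strands of the windows of all 5 genes. The half-site of nuclear receptors, AGGTCA, was in none of them (14.0% of all windows), nor were 2 copies of AGGNCA 1 base apart, the form that PPARalpha binds with its partner (0.338%). TTCNNNGAA, the core bound by STAT5, was in *Cyp4f13* alone, 22 bases before the start (7.02%), and TATAAA in *Cyp4a32* alone (12.4%). A match here is a run of letters and not a measured binding site.

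*Cyp4f14* was at 226, 193, 195, 218 and 223 CPM in wild-type livers 1 to 5, against 113, 54.1, 37.1, 76.9 and 164 CPM in Ndrg3 LKO livers 1 to 5. *Cyp4f15* was at 198, 161, 151, 175 and 142 CPM and at 40.0, 28.3, 29.98, 39.6 and 126 CPM. Neither gene's groups overlapped, but in both Ndrg3 LKO liver 5 was the highest of its group and the nearest to wild type. The log2 fold change of *Cyp4f14* was -1.25 ± 0.33 (SE, 95% interval -1.96 to -0.54, edgeR adjusted p = 0.00807, exact permutation p = 0.00794), and -1.60 without Ndrg3 LKO liver 5 (edgeR adjusted p = 0.000363). That of *Cyp4f15* was -1.65 ± 0.38 (SE, 95% interval -2.47 to -0.83, edgeR adjusted p = 0.00390, exact permutation p = 0.00794), and -2.27 without Ndrg3 LKO liver 5 (edgeR adjusted p = 7.17e-07).

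*Cyp4f13* was at 99.5, 92.3, 87.6, 86.4 and 90.1 CPM in wild-type livers 1 to 5, against 62.0, 49.8, 48.3, 79.5 and 71.1 CPM in Ndrg3 LKO livers 1 to 5. Its fall was the smallest of the 6, with groups that did not overlap but lay close, at a log2 fold change of -0.55 ± 0.15 (SE, 95% interval -0.88 to -0.23, edgeR adjusted p = 0.00918, exact permutation p = 0.00794, and -0.62 without Ndrg3 LKO liver 5). Under library-size scaling it was -0.042 (edgeR adjusted p = 0.822), so the call on *Cyp4f13* depends on the scaling. No 100-base stretch of the *Cyp4f* transcripts described here is shared with another gene.

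The place of Ndrg3 LKO liver 5 among the other 4 differed from member to member. Setting the wild-type mean at 0% and the mean of Ndrg3 LKO livers 1 to 4 at 100% on the log2 scale, liver 5 lay at 60.2% on the first principal component, at 16.9% for *Cyp4f15*, 21.2% for *Cyp4f14*, 50.2% for *Cyp4a14* and 56.4% for *Cyp4f13*. It lay past that mean but within the range of Ndrg3 LKO livers 1 to 4, of which liver 3 was lower still, at 130% for *Cyp4a12a*, 152% for *Cyp4a10* and 163% for *Cyp4a12b*. The Ndrg3 LKO liver nearest to wild type for *Cyp4f14* and *Cyp4f15* was thus next to the lowest of its group for *Cyp4a12a*, *Cyp4a12b* and *Cyp4a10*.

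*Cyp4v3*, the counterpart of human CYP4V2, a hydroxylase of medium-chain and polyunsaturated fatty acids, stands alone on the minus strand of chromosome 8, from 46391155 to 46418570 in mm9. It was at 542, 555, 584, 568 and 539.7 CPM in wild-type livers 1 to 5, against 643, 452, 557, 486 and 657 CPM in Ndrg3 LKO livers 1 to 5. The means were 558 ± 18.6 and 559 ± 91.6 CPM (SD, n = 5 each), with Ndrg3 LKO livers on both sides of the wild-type range. The log2 fold change of *Cyp4v3* was 0.0032 ± 0.15 (SE, 95% interval -0.31 to 0.32, edgeR adjusted p = 0.988, exact permutation p = 0.889), and -0.074 without Ndrg3 LKO liver 5. Under library-size scaling it was 0.51 and was called as higher (edgeR adjusted p = 0.00643), close to the shift of the median gene under that scaling. *Klkb1*, the plasma kallikrein gene, overlaps *Cyp4v3* on the same strand and shares 7.504% of its 100-base stretches, and fell (log2 fold change -1.18 ± 0.34, SE, edgeR adjusted p = 0.0135).

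Levels of different genes were compared per kilobase of exon. In wild-type livers *Cyp4a10* was highest, at 438 ± 239 CPM per kb (SD, n = 5), followed by *Cyp4a14*, *Cyp4v3*, *Cyp4a12a*, *Cyp4f14*, *Cyp4f15*, *Cyp4a12b*, *Cyp4a32*, *Cyp4f13* and *Cyp4a31*. *Cyp4a10* was above *Cyp4a14* within each of the 5 livers although the ranges over livers overlapped, as they did down to *Cyp4a12a*. The order is that of the means: *Cyp4a14* was above *Cyp4v3* in only 2 of the 5 wild-type livers. Neighbours whose ranges were separate were *Cyp4a12a* over *Cyp4f14*, *Cyp4f14* over *Cyp4f15*, *Cyp4a32* over *Cyp4f13* and *Cyp4f13* over *Cyp4a31*. In Ndrg3 LKO livers the order was *Cyp4a14*, *Cyp4v3*, *Cyp4a10*, *Cyp4f14*, *Cyp4a32*, *Cyp4a12a*, *Cyp4f15*, *Cyp4f13*, *Cyp4a12b* and *Cyp4a31*, and only *Cyp4a14*, at 1145 ± 576 CPM per kb, was separate from the next. There *Cyp4f14* was above *Cyp4a32* in 2 of 5 livers and *Cyp4f15* above *Cyp4f13* in 1 of 5, liver 5, so these places in the order are not firm.

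Each gene was also taken as a share of the 10 genes' counts per kilobase in its liver. *Cyp4a14* held 23.0%, 14.7%, 27.2%, 3.38% and 12.1% in wild-type livers 1 to 5 and 65.2%, 75.8%, 70.0%, 71.6% and 46.9% in Ndrg3 LKO livers 1 to 5. It was never the largest share in a wild-type liver and always the largest in an Ndrg3 LKO liver, with means of 16.1% ± 9.35 and 65.9% ± 11.3 (SD, n = 5 each, 2-sided exact permutation p = 0.00794, and 70.6% without Ndrg3 LKO liver 5). *Cyp4a10* went from 30.4% ± 11.4 to 9.09% ± 1.93 (exact permutation p = 0.0159), *Cyp4a12a* from 13.8% ± 6.44 to 1.77% ± 1.38 (exact permutation p = 0.00794) and *Cyp4v3* from 15.5% ± 5.72 to 13.4% ± 6.84 (exact permutation p = 0.595). Without Ndrg3 LKO liver 5 the means of that group were 8.85% (exact permutation p = 0.0238), 1.89% (exact permutation p = 0.0159) and 11.05% (exact permutation p = 0.262). The shares of a liver add up to 100%, so they do not move independently. The summed level was 1331 ± 406 CPM per kb in wild-type and 1672 ± 653 in Ndrg3 LKO livers (SD, n = 5 each, exact permutation p = 0.405), a difference within the spread between livers, as it was at 1845 ± 606 without Ndrg3 LKO liver 5 (exact permutation p = 0.1905). This result depends on the scaling. As a part of all counts of a liver, with no TMM scaling, the 10 genes held 0.264% ± 0.0692 in wild-type and 0.530% ± 0.248 in Ndrg3 LKO livers (SD, n = 5 each, 2-sided exact permutation p = 0.0476 on the log2 scale), and 0.606% without Ndrg3 LKO liver 5 (exact permutation p = 0.00794). The share of all counts and both values without liver 5 were computed with these levels already known.

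**Figure D4:**
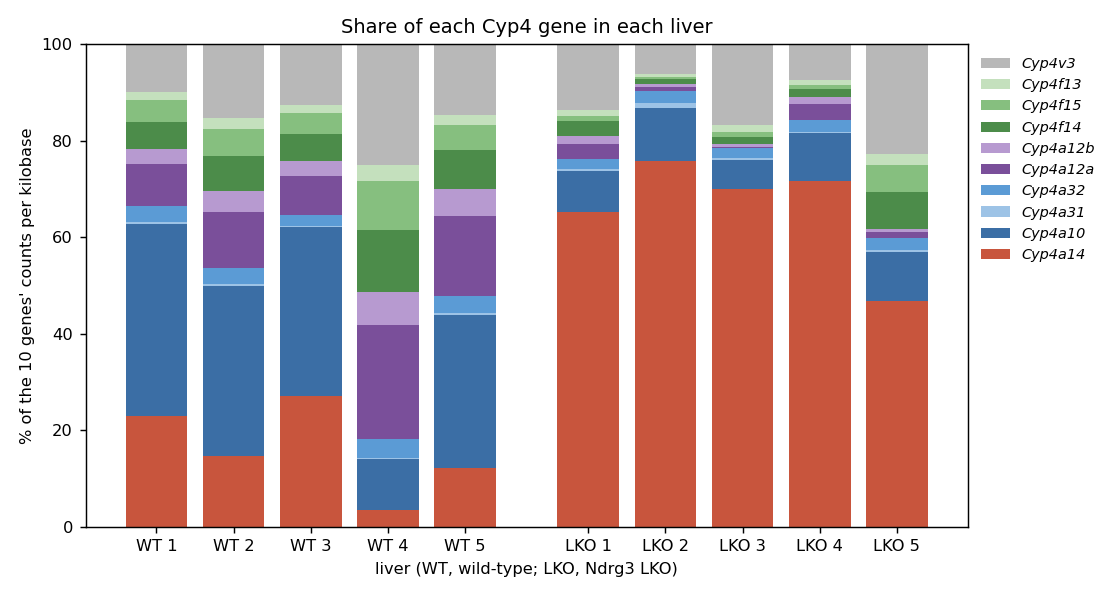
Percent of the 10 Cyp4 genes' counts per kilobase of exon held by each gene in each liver, stacked to 100%. Cyp4a14 fills 3.38% to 27.2% of the wild-type bars and 46.9% to 75.8% of the Ndrg3 LKO bars.

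The 6 *Cyp4a* genes together, dominated by *Cyp4a14* in Ndrg3 LKO livers, rose against the 3 *Cyp4f* genes. The log2 ratio of summed counts per kilobase was 2.72, 2.21, 2.703, 0.89 and 2.19 in wild-type livers 1 to 5, against 3.88, 5.44, 4.32, 4.68 and 1.99 in Ndrg3 LKO livers 1 to 5. Ndrg3 LKO liver 5 lay inside the wild-type range, and the other 4 above it. The difference was 1.92 (2-sided exact permutation p = 0.0397), and 2.44 without Ndrg3 LKO liver 5 (exact permutation p = 0.00794). The exact permutation p rose above 0.05 when wild-type liver 2, 4 or 5 or Ndrg3 LKO liver 2 or 4 was left out, to at most 0.0794, with a difference of 1.58 in the lowest case.

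Among the genes that act with PPARalpha, *Ppara* itself fell while *Cyp4a14* rose. *Ppara* was at 369, 364, 315, 332 and 298 CPM in wild-type livers 1 to 5, against 88.7, 132, 104, 111 and 158 CPM in Ndrg3 LKO livers 1 to 5, without overlap (log2 fold change -1.50 ± 0.17, SE, edgeR adjusted p = 4.82e-05). *Rxra*, the receptor with which it pairs, was at means of 389 ± 73.9 and 421 ± 61.7 CPM and did not pass the test (0.11 ± 0.17, SE, edgeR adjusted p = 0.596). Of the 8 genes of *Ppara* and its partners, 1 was higher, the coactivator *Ppargc1a* (2.76 ± 0.33, SE, edgeR adjusted p = 7.04e-05), and 1 lower, *Ppara*. These 2 calls are 25.0% of the list, where 48.6% of all genes were called, and under library-size scaling 4 were higher and 1 lower. Without Ndrg3 LKO liver 5, where 55.6% of all genes were called, 2 were higher and 1 lower.

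Of the 38 PPARalpha targets beside the *Cyp4a* genes, 37 were tested, of which 3 rose, 13 fell and 21 did not pass the test, with a median log2 fold change of -0.42. The share called was 43.2%, near the 48.6% of all genes, and 3 rose and 15 fell without Ndrg3 LKO liver 5. Like *Cyp4a14*, *Acot2*, a mitochondrial acyl-CoA thioesterase, rose (2.34 ± 0.64, SE, edgeR adjusted p = 0.00987), though with groups that overlapped through Ndrg3 LKO liver 5 at 10.6 CPM. With the replicate number as a block none of the 37 was higher and 12 were lower, and *Acot2* lost its call (1.98, edgeR adjusted p = 0.0649). Like *Cyp4a10*, *G0s2*, an inhibitor of lipolysis, fell (-2.85 ± 0.37, SE, edgeR adjusted p = 0.000129). *Ehhadh*, the bifunctional enzyme of peroxisomal beta-oxidation, had a log2 fold change of -0.91 ± 0.45 (SE, edgeR adjusted p = 0.110). The direction of this list depended on the scaling, since under library-size scaling 9 rose and 6 fell, with a median of 0.18. Wild-type liver 4 was the lowest wild-type liver for 30 of the 37 targets (81.1%), for 5 of the 10 *Cyp4* genes and for 25.5% of all genes tested.

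Of the 4 genes for proteins that pass electrons to P450 enzymes, 3 (75.0%) fell, with or without Ndrg3 LKO liver 5: *Por*, the P450 reductase (-0.49 ± 0.15, SE, edgeR adjusted p = 0.0213), *Cyb5*, cytochrome b5 (-0.76 ± 0.20, SE, edgeR adjusted p = 0.00786) and *Cyb5r3*, its reductase (-0.73 ± 0.17, SE). Beside this, 48.6% of all genes were called, 23.0% as lower, and 55.6% were called without Ndrg3 LKO liver 5. Under library-size scaling none of the 4 was lower and 1 was higher. Of 23 genes for the steps after omega-hydroxylation, from alcohol to peroxisome, 2 rose, 11 fell and 10 did not pass the test (3 and 7 under library-size scaling, 2 and 13 without Ndrg3 LKO liver 5). The share called was 56.5%, against 48.6% of all genes. *Adh1*, the main hepatic alcohol dehydrogenase, rose (1.16 ± 0.21, SE, edgeR adjusted p = 0.000869), as did *Abcd2*, a peroxisomal transporter of very long-chain acyl-CoA (4.96 ± 0.29, SE, edgeR adjusted p = 1.29e-06). *Acsl1*, the main hepatic acyl-CoA synthetase, had the largest fall of this list (-1.54 ± 0.22, SE, edgeR adjusted p = 0.000208), and *Aldh3a2*, the fatty aldehyde dehydrogenase, did not pass the test (0.20 ± 0.25, SE, edgeR adjusted p = 0.530). Several genes stand in both this list and that of the PPARalpha targets.

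The male-expressed *Cyp4a12a* and *Cyp4a12b* were set beside other genes with male-biased expression in mouse liver. Of 16 such genes tested, 15 (93.8%) fell and none rose, with or without Ndrg3 LKO liver 5. Of all genes 48.6% were called, 23.0% as lower, and 55.6% were called without Ndrg3 LKO liver 5. The median log2 fold change of the male-biased genes was -3.64 (-3.13 under library-size scaling, again with 15 lower). The largest fall was that of *Serpina12*, which encodes the adipokine vaspin, from 90.3 ± 27.1 to 0.215 ± 0.101 CPM (SD, n = 5 each). Of 18 female-biased genes only 7 passed the filter on low counts. Of these 3 (42.9%, beside 48.6% of all genes, 25.6% as higher) rose and none fell, and without Ndrg3 LKO liver 5 it was 4 of 8. *Sult1e1*, which the filter left out, was at means of 1.99 CPM in wild-type and 0.263 CPM in Ndrg3 LKO livers. *Cyp2b9*, a P450 of female liver, was at 0.0489 to 0.225 CPM in wild-type and at 3.17 to 109 CPM in Ndrg3 LKO livers. The other 2 that rose, *Cyp2a4* and *Prom1*, were at 0.538 to 2.34 and at 0.298 to 1.08 CPM in wild-type livers. All 3 passed the filter through the Ndrg3 LKO livers, so that they were tested only because they were high there. The count of rises was therefore partly set by the filter and is not read as a result. *Ghr*, the growth hormone receptor, fell from 487 ± 41.3 to 152 ± 87.3 CPM (log2 fold change -1.68 ± 0.30, SE, edgeR adjusted p = 0.000940) and *Socs2*, a feedback inhibitor that it induces, fell by 2.56 on the log2 scale (edgeR adjusted p = 0.000169). *Stat5b*, the transcription factor below the receptor, did not pass the test (-0.15 ± 0.17, SE, edgeR adjusted p = 0.494). Of the 9 tested genes of growth hormone signalling, 4 fell and none rose (2 and 1 under library-size scaling, and again 4 and none without Ndrg3 LKO liver 5). The share called was 44.4%, near the 48.6% of all genes, of which 23.0% were called as lower.

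**Figure D5:**
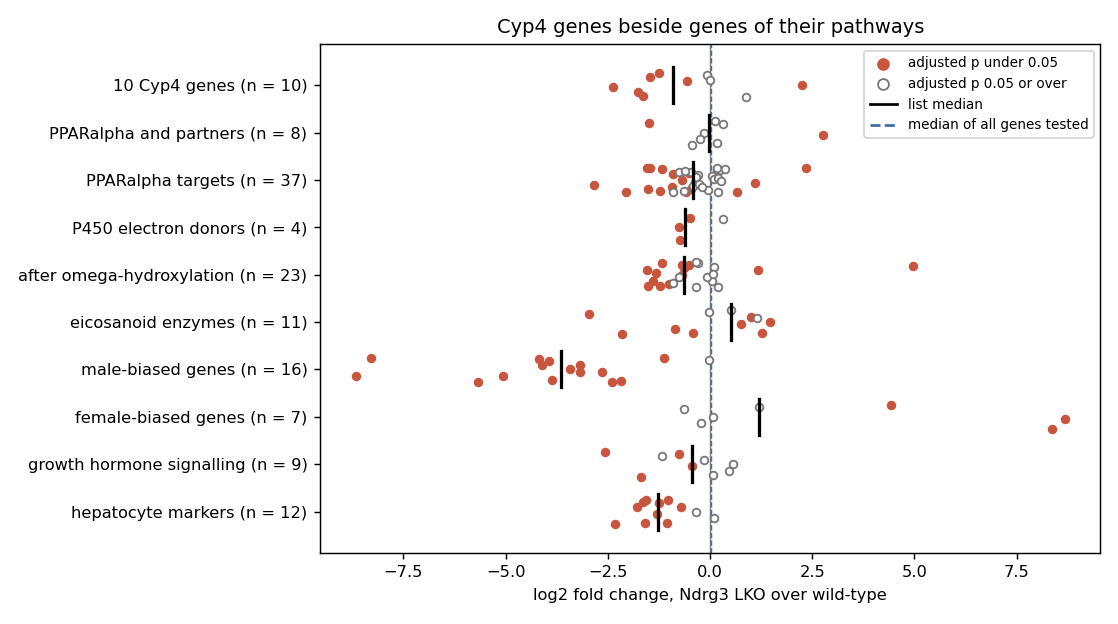
log2 fold change (Ndrg3 LKO over wild-type, edgeR) of each tested gene in the named lists, with filled points where the adjusted p is under 0.05, a bar at each list's median and a dashed line at the median of all genes tested (0.031). The male-biased genes, with a median of -3.64, lie furthest to the left, and the 10 Cyp4 genes have a median of -0.90.

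The genes whose profile over the 10 livers was most like that of a *Cyp4* gene were sought by Pearson's r of log2(TMM CPM + 1) over 7159 genes, which includes the difference between the groups. For *Cyp4a12a* they were *Cyp4a12b* (0.982), the male-biased organic anion transporter gene *Slco1a1* (0.956) and *Bid*, a pro-apoptotic BCL-2 relative (0.950). For *Cyp4f14* they were the carboxylesterase genes *Ces1f* (0.986) and *Ces3a* (0.982) with the carbonic anhydrase gene *Car3* (0.983). For *Cyp4a14* they were the tubulin gene *Tubb2a* (0.953), the splicing factor gene *Sfpq* (0.939) and the RNA methyltransferase gene *Mettl16* (0.936), none of them a *Cyp4* gene. For *Cyp4v3* they were the glutathione transferase gene *Gsta2* (0.960) and the sterol synthesis genes *Sqle* (0.955) and *Mvk* (0.916). All were taken over the same 10 livers and share their library scaling.

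Cell type markers moved with the groups in these whole livers. Of 12 hepatocyte markers 10 fell and none rose, with a median log2 fold change of -1.27 and a summed level of 175120 to 213600 CPM in wild-type and 51421 to 185480 CPM in Ndrg3 LKO livers; none was at 0. All 10 Kupffer cell and macrophage markers, 6 of 9 stellate cell markers and 6 of 7 sinusoidal endothelial markers rose, while 1 of 6 cholangiocyte markers rose and 1 fell. Their summed levels were 108 to 281 against 236 to 760 CPM (Kupffer cell), 117 to 183 against 251 to 329 CPM (stellate cell), 55.1 to 71.8 against 118 to 155 CPM (endothelial) and 49.7 to 80.4 against 56.8 to 228 CPM (cholangiocyte). The shares called were 83.3% (hepatocyte), 100% (Kupffer cell), 66.7% (stellate cell), 85.7% (endothelial) and 33.3% (cholangiocyte). Of all genes tested 48.6% were called, 25.6% as higher and 23.0% as lower. Groups did not overlap for 6 hepatocyte markers (lower) and for 2 Kupffer cell, 4 stellate cell and 5 endothelial markers (higher). Of all genes 31.5% did not overlap in either direction. No neutrophil marker was high enough to be tested. Of the red cell markers *Alas2*, at a mean of 153 CPM in wild-type livers, fell by 3.19 on the log2 scale (edgeR adjusted p = 0.000201). *Hba-a1* and *Hbb-b1* were at 0 in all livers. How the counting treated these 2 symbols is not known, so their zeros are not read as an absence of blood. Under library-size scaling the medians were -0.855 (hepatocyte), 1.86 (Kupffer cell), 1.72 (stellate cell) and 1.77 (endothelial), against 0.56 for all genes. Without Ndrg3 LKO liver 5 the summed level of the hepatocyte markers was 51421 to 58603 CPM in Ndrg3 LKO livers. Of the 12, 11 then fell, where 55.6% of all genes were called. The same number of Kupffer cell, stellate cell and endothelial markers then rose as with it, and 2 cholangiocyte markers rose and 1 fell. The part of these markers in the falls of the *Cyp4* genes was not tested.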

How the data were processed

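RNA of 10 livers was sequenced by the authors from stranded mRNA libraries with paired-end reads, mapped to mm9 with STAR (2.7.3a in the submitters' processing notes, which also name bcl2fastq, Trim Galore 0.6.4 and Cufflinks 2.2.1). The deposited values are counts per gene symbol; the word CPM stands in the names of the files, yet they hold whole numbers only, with a different sum for each liver, and were treated as counts that the authors had not normalized. The annotation and the strand setting of their counting are not given in the sources used here, so genes that overlap or share sequence are uncertain. Of the 24052 symbols, 20945 were found in GENCODE vM1 of NCBIM37 (mm9), which gave positions, the summed length of exons and the share of 100-base stretches of transcript found in another gene.

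The 11208 genes that reached 1 CPM in 5 or more livers were tested with edgeR 4.0.16 in R 4.3.3 (TMM, quasi-likelihood test, 2 groups without covariates, Benjamini-Hochberg over all of them, threshold 0.05). SE is that of the log2 fold change. Exact permutation tests were 2-sided on log2(TMM CPM + 1), on the log2 ratio or share named, or on log2 of a summed level with nothing added. They ran over every way of dividing the livers, 252 ways for all 10 livers and 126 where a liver was left out. A signal of 3 counts, 0.0985 to 0.144 CPM, was taken as the smallest a library can show, which covers counting error only. The edgeR fit was tested on simulated data beforehand. The alternatives were DESeq2 1.42.0, limma 3.58.1 at pseudocounts of 0.1, 1 and 5, quantile normalization, library-size scaling, no filter, a mean CPM of at least 5, an absolute log2 fold change above 1, the replicate number as a block and each liver left out in turn. The summed level of the 10 genes as a part of all counts, and the summed levels and marker lists without Ndrg3 LKO liver 5, are alternatives chosen after seeing the data.

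The genes named are the 10 members, *Ndrg3*, the called genes with the largest rise and fall of each list with a mean of at least 10 CPM in the higher group, a few regulators and enzymes named in every case, and the 3 genes most like 4 of the members. *Cyb5r3*, *Adh1*, *Klkb1* and *Sult1e1* were added once their values were known. Results on some genes named by this rule are not reported here. Members and lists were chosen with earlier results of these data known. Motifs were searched in promoter sequences of RefSeq (GRCm38.p6), whose coordinates were not mixed with those of mm9.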

Additional observations from a re-analysis of the deposited data

Results flagged for a closer look

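Among the 20 groups of 5 livers (10 *Cyp4* genes in both genotypes), 2 held a liver far from the other 4, where chance gives about 1 in 20. *Cyp4a31* was at 61.7 CPM in Ndrg3 LKO liver 2, and the next liver of that group was at 15.9, a gap of 0.857 of the group's range. Ndrg3 LKO liver 2 also held the highest *Cyp4a14*, *Cyp4a10* and *Cyp4a32* of its group. *Cyp4f15* was at 126 CPM in Ndrg3 LKO liver 5, and the next was at 40.0, a gap of 0.880 of the range. That liver also held the highest *Cyp4f14* of its group. Why these livers differ was not tested.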

How the results depend on the processing

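Over the 20 alternatives run, between 6 and 7 of the 10 *Cyp4* genes were called, and of 190 values of a gene under an alternative 161 kept both direction and side of the threshold. *Cyp4a12a*, *Cyp4a12b*, *Cyp4a14*, *Cyp4f14* and *Cyp4f15* kept theirs in all 19. *Cyp4a10* lost its call in 10, with log2 fold changes from -1.75 to -0.87 over all 19, including when wild-type liver 1 or 3 or Ndrg3 LKO liver 1 or 3 was left out (-1.22, -1.40, -1.42 and -1.28), and *Cyp4f13* lost it under library-size scaling (-0.042). *Cyp4a32*, never called, was 0.50 under library-size scaling and -0.33 to 0.089 with a liver left out. *Cyp4v3* was -0.0010 with DESeq2, -0.037 without the filter, -0.012 with limma at each pseudocount (-0.011894, -0.011938 and -0.011699), -0.012 with the replicate block and -0.074 to 0.069 with a liver left out. With each liver left out, 4703 to 6360 genes of the whole table were called, and 2301 with an absolute log2 fold change above 1. Under library-size scaling 1 P450 electron donor and 5 of *Ppara* and its partners were called. The sum of *Cyp4a10*, *Cyp4a31* and *Cyp4a32* was no longer called under library-size scaling (-0.66), without Ndrg3 LKO liver 5 (-1.14) or with the replicate block (-1.25, edgeR adjusted p = 0.110). The log2 ratio of *Cyp4a* over *Cyp4f* genes was 1.58 to 2.44 with a liver left out. Unless said otherwise, the cause was not tested.

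The groups share replicate numbers 1 to 5, but same-numbered livers did not deviate together (correlations of -0.357, -0.272, -0.313, -0.176 and 0.0363, and no liver correlated best with its own number), so the numbers were not taken as pairs. With the number as a replicate block 6 of the 10 genes were called, *Cyp4a10* no longer among them (-1.45, edgeR adjusted p = 0.0938), and 4412 genes of the whole table. At these depths each of the 10 genes had at least 98 counts in each liver, so counting error is small beside the spread between livers.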

Other observations

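Of the 12 other *Cyp4* symbols, 3 were high enough to be tested, and all 3 were called, where 48.6% of all genes tested were called. *Cyp4f16* passed the filter only with the Ndrg3 LKO livers, as wild-type liver 2 held 24 counts in 24747870, just under 1 CPM before TMM scaling. *Cyp4f16* was at 1.10 to 1.61 CPM in wild-type and at 7.27 to 13.2 CPM in Ndrg3 LKO livers (log2 fold change 3.03 ± 0.21, SE, edgeR adjusted p = 2.62e-06), while *Cyp4f13*, *Cyp4f14* and *Cyp4f15* fell. *Cyp4f17* fell from 14.7 ± 2.99 to 4.99 ± 1.37 CPM (SD, n = 5 each, -1.56 ± 0.21, SE, edgeR adjusted p = 0.000169). *Cyp4b1*, best known from lung, rose from 5.05 ± 0.711 to 9.95 ± 1.004 CPM (SD, n = 5 each, 0.97 ± 0.15, SE, edgeR adjusted p = 0.000315). *Cyp4a29*, *Cyp4a30b*, *Cyp4f40* and *Cyp4x1* were at 0 in all 10 livers, and *Cyp4b1-ps2*, too low to be tested, had between 0 and 3 counts.

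Of 48 tested P450 genes outside the *Cyp4* family, 27 fell and 9 rose, with a median log2 fold change of -0.90 (21 and 10 under library-size scaling). The share called was 75.0%, against 48.6% of all genes, and of 50 tested without Ndrg3 LKO liver 5, 28 fell and 10 rose. *Cyp2c54* fell the most, from 325 ± 78.5 to 6.10 ± 4.56 CPM (SD, n = 5 each, -5.75 ± 0.48, SE, edgeR adjusted p = 8.92e-06). Of 17 genes for eicosanoids, the other substrates of the *Cyp4* enzymes, 11 were high enough to be tested. Of these 4 rose and 4 fell (6 and 2 under library-size scaling, and 5 and 4 without Ndrg3 LKO liver 5). The share called was 72.7%, against 48.6% of all genes. *Ptgs1*, cyclooxygenase-1, rose by 1.26 ± 0.25 (log2 fold change, SE, edgeR adjusted p = 0.00178), and *Cyp2c44*, an arachidonic acid epoxygenase, had a log2 fold change of -2.96 ± 0.43 (SE, edgeR adjusted p = 0.000273).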
